A study of Mus musculus with 4 samples.

Results

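The genes described here are 9 genes of the B lymphocyte programme: Vpreb1, Igll1, Cr2, Dntt, Ebf1, Pax5, Cd79a, Rag1 and Rag2, out of 21883 annotated protein-coding genes. Their chromatin was read in myeloid cells, and all that is reported is open chromatin, not expression. A locus was the gene body with 20 kb on either side on the mouse build mm10 (GRCm38), and every interval that the authors called in such a window belongs to the set. Vpreb1 with Igll1 and Rag1 with Rag2 lie close enough to share a window, so the 9 genes make 7 loci. Intervals that shared at least 1 base were joined, which gave 45 regions in these loci among 120423 regions in the whole data set. The study examined the chemokine receptor CXCR3 in macrophages and liver cancer. Its 4 Omni-ATAC-seq libraries came from bone marrow-derived C57BL/6J mouse cells kept in culture. They were wild-type (WT) CMP/GMP cells, that is common myeloid and granulocyte-monocyte progenitors, Cxcr3-/- CMP/GMP cells, WT monocytes and Cxcr3-/- monocytes, with 1 library per group. The labels give hepatocellular carcinoma as the disease state of all 4; the age of the mice, the culture agents, and whether the marrow donors had been treated with carcinogen are not given in the sources used here. With 1 library per group there is no replicate check, so no p-value is given, and a difference between groups is a difference between these libraries.

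In Omni-ATAC-seq a transposase cuts DNA that is not wrapped tightly in nucleosomes, so cuts pile up at active promoters and enhancers. During B cell development, EBF1 and PAX5 are the transcription factors that specify and then commit the lineage. RAG1 and RAG2 form the recombinase that cuts antigen receptor genes, and the Dntt product, terminal deoxynucleotidyl transferase (TdT), adds bases at the joints. The proteins of Vpreb1 and Igll1 (lambda 5) make the surrogate light chain of the pre-B cell receptor, CD79A carries its signal into the cell, and CR2 is a complement receptor of mature B cells. Myeloid cells do not normally make most of these proteins, although common progenitors and early lymphoid cells are known to show open chromatin and low transcription at some of their genes.

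Values for the 4 libraries are given in a fixed order, progenitors before monocytes and WT before Cxcr3-/- within each. The lists held 69521, 80171, 98257 and 78244 intervals. The median interval had between 21 and 29 tags at its summit, and no list held an interval under 5 tags. Here a tag is 1 unit of read pileup at the highest point of an interval, recovered as a whole number from the deposited fold and −log10 p on the assumption that these follow the formulas of the MACS peak caller. Markers of the labelled cells were read in the same way. The 9 CMP/GMP marker loci held 92 regions, 18 called in both CMP/GMP libraries and neither monocyte library and 5 of the reverse kind. The 8 monocyte marker loci held 79, with 3 and 18 of these kinds. Over all regions the 2 kinds made 7.28% and 14.4%. Single markers differed: Csf1r held 1 and 7 and Lgmn 1 and 5, but the monocyte marker Ly6c2 held 1 and 0. Among the CMP/GMP markers Mpo held 5 and 0, but Cd34 held 0 and 1. Gene starts lay in a called region at 7 of the 9 CMP/GMP markers (not Prtn3 or Cebpe). They did so at 5 of the 8 monocyte markers (not Csf1r, Ccr2 or Maf). At 5 B cell markers outside the set (Ms4a1, Cd79b, Vpreb3, Blk and Fcer2a) no gene start lay in a called region, and at 8 T cell markers none did. A start without a call thus occurred at markers of the labelled cells too. At 4 early lymphoid markers (Il7r, Flt3, Notch1 and Satb1) every start was called in all 4 libraries.

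Of the 9 members, Cr2 alone had its annotated start inside a called region. That is 11.1% of the members, against 56.3% of the 17491 protein-coding genes for which a start was matched. The other starts lay between 192 bases (Ebf1) and 5989 bases (Pax5) from the nearest region. Of the member promoters, only that of Cr2 thus carried the label of open chromatin. Promoter windows that hold the E-box CAGGTG, a sequence that E proteins such as E2A bind, are printed here because the members share this word more than any other that was searched, while their state differed. The word was found in either orientation in 5 of 10 member windows (Ebf1 has 2), and in 20.2% of 32851 RefSeq windows of the same 300 bases. The 250 bases before each start are printed 5′ to 3′ on the gene's own strand from RefSeq (GRCm38.p6), with the E-box in capitals; CACCTG is the same word on the other strand.
Cr2: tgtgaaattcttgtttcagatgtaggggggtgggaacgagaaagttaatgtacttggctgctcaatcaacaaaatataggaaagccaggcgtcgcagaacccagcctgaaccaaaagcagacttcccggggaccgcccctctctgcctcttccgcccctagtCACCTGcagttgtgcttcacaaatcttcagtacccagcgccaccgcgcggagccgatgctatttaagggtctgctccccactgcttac
Igll1: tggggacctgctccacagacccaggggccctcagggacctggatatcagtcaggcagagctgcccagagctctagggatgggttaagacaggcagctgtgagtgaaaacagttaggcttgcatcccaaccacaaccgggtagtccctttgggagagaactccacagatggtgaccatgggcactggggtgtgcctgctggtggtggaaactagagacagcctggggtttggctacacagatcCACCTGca
Vpreb1: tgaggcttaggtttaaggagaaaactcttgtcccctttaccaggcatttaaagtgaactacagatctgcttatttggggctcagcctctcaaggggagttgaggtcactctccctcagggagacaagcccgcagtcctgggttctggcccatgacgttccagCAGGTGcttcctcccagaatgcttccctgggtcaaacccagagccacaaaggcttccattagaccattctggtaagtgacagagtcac
Cd79a: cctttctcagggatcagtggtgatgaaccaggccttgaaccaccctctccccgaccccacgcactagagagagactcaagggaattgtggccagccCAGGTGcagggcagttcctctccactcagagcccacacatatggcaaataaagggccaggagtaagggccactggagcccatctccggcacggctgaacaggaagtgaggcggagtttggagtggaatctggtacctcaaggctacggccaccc
Rag1: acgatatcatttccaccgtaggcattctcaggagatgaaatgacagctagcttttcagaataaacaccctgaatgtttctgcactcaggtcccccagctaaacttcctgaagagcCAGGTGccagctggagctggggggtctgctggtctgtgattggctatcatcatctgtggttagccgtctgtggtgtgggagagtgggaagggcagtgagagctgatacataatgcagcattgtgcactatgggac
The Cr2 stretch is chr1:195176720-195176969 on the minus strand, and 228 of its 250 bases lay in a region called in all 4 libraries. The others are Igll1 at chr16:16863986-16864235, Vpreb1 at chr16:16869256-16869505 and Rag1 at chr2:101649533-101649782, all on the minus strand, and Cd79a at chr7:24897247-24897496 on the plus strand. None of their bases lay in a called region of any library. The E-box begins 88 bases before the start in Cr2 and in Vpreb1, 8 before it in Igll1, 154 in Cd79a and 135 in Rag1. The second E-box CAGCTG was in 2 member windows, Rag1 and Igll1, against 16.3% of all windows. The RUNX word TGTGGT was in 3 (Rag1, Ebf1 and Igll1) against 16.8%, and the Ikaros word TGGGAA in 3 (Cr2, Rag1 and Ebf1) against 25.6%. The palindromic EBF word was in none of the 10 and in 0.904% of all windows, and the PU.1 words AGAGGAAG and AGGGGAAG were in none and in 7.24%. The C/EBP word TTGCNNAA was likewise in none and in 10.8%. A match to such a short word is a description of the letters in the window.

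The 7 loci were neither uniformly closed nor uniformly open. Together the member loci held 0.0475%, 0.0437%, 0.0336% and 0.0345% of the lists, or 33, 35, 33 and 27 intervals. Their median summits were 22 and 29 tags in CMP/GMP (ranges 10 to 140 in WT and 11 to 227 in Cxcr3-/-) and 18 and 15 tags in monocytes (ranges 6 to 125 and 7 to 135). For a single locus, the medians over all 21883 loci of the same rule were 4, 4, 5 and 4 intervals, and 0.844 regions per 10 kb. Dntt was the densest member locus with 11 regions, 1.57 per 10 kb, which is more than at 81.4% of loci. The Vpreb1/Igll1 locus with 6 regions, the Rag1/Rag2 locus with 8 and the Cd79a locus with 5 had 1.23, 1.23 and 1.13 per 10 kb and lay above 69.3%, 69.3% and 64.3% of loci. The long genes were sparse: Ebf1 had 9 regions in 430.0 kb, 0.209 per 10 kb, and Pax5 had 4 in 225.9 kb, 0.177 per 10 kb. Cr2 had 2 regions, 0.250 per 10 kb. Only 22.1%, 20.7% and 24.9% of loci were sparser than Ebf1, Pax5 and Cr2.

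Much of the signal in these windows belonged to neighbours. Of the 45 regions, 1 lay over a member's start, 7 over the start of another gene and 37 over no annotated start. Regions over any annotated start thus made 17.8% of the member regions, against 8.83% of all 120423 regions. Signals were put on 1 scale by dividing the tags by a factor per library (processing is described after the results), and summed over the 4 libraries. The regions over other genes' starts then had a median of 420 scaled tags (range 10.8 to 566), and those over no start had 54.2 (5.39 to 163). In 4 loci the region with the highest summed signal was at a neighbour's start, and it held 49.2% of the signal of its locus at Vpreb1/Igll1 (Top3b, a DNA topoisomerase), 75.7% at Cr2 (Cr1l, a complement regulator), 44.6% at Cd79a (Arhgef1, a guanine nucleotide exchange factor) and 60.9% at Rag1/Rag2 (Iftap, whose start lies inside Rag2). In the other 3 it lay over no start: 20.1% of the signal at Dntt, 30.6% at Ebf1 and 64.1% at Pax5.

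**Figure D1:**
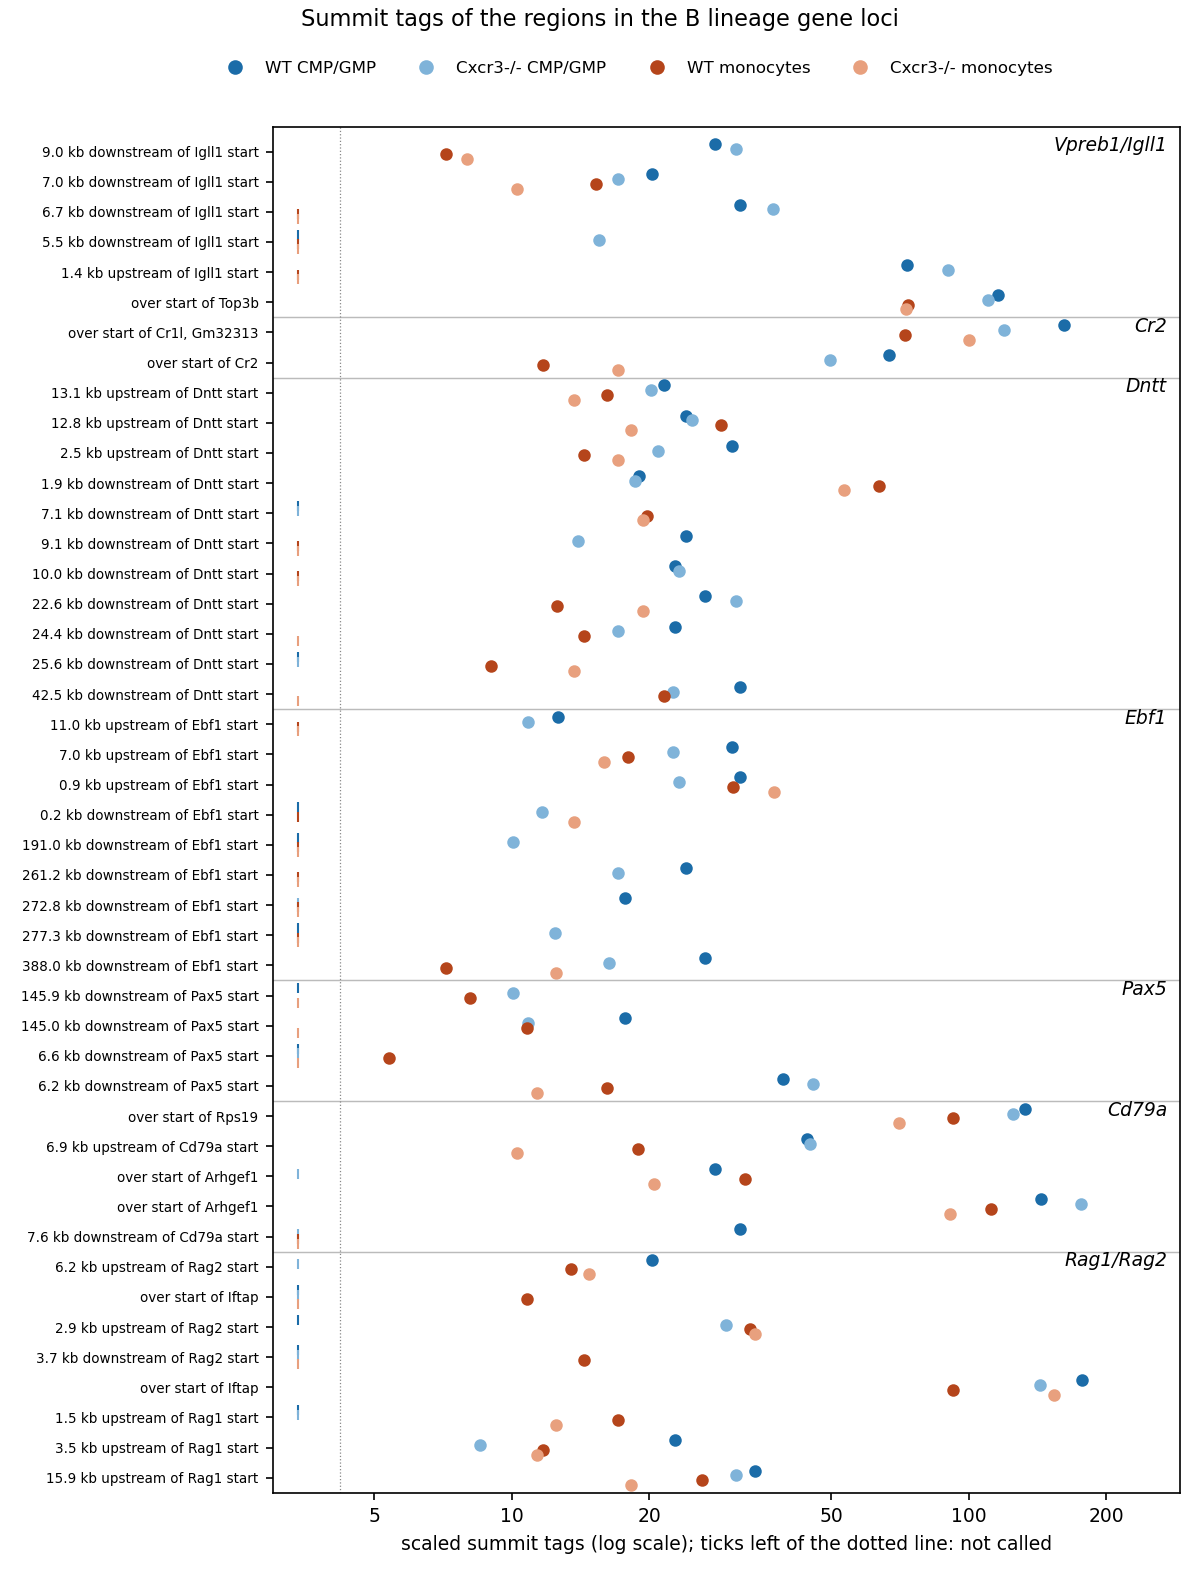
Each row is 1 of the 45 regions, named by its position and grouped by locus, and each point gives its summit height in scaled tags (horizontal, log axis) in 1 library (colour); short ticks at the left edge mark libraries in which it was not called. A start of Top3b, Cr1l, Arhgef1 or Iftap is the row with the highest summed signal in 4 loci, and the Cr2 start is the only row over a member's start.

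By the libraries in which a region was called, 20 of the 45 member regions were called in all 4 (44.4%, exact 95% binomial interval 29.6 to 60.0; 37.0% of all regions). In both CMP/GMP libraries and neither monocyte library, 6 were called (13.3%, 5.05 to 26.8; 7.28% of all regions). In both monocyte libraries and neither CMP/GMP library, 3 were called (6.67%, 1.40 to 18.3; 14.4% of all regions). The intervals cover counting error only, and regions of 1 locus are not independent. Each of the 3 shares over all regions lies inside the interval of the members' share, so at this number of regions no difference from the background was detectable. Without the 7 regions over other genes' starts, 38 regions remained, with 15 called in all 4 and the same 6 and 3. These made 39.5% (24.0 to 56.6), 15.8% (6.02 to 31.3) and 7.89% (1.66 to 21.4). Among all regions over no annotated start the shares were 32.4%, 7.77% and 15.6%, each again inside the members' interval. Of the 6 CMP/GMP regions 2 were at Vpreb1/Igll1, 2 at Dntt and 2 at Ebf1, with none at the other loci. Of the 3 monocyte regions 2 were at Dntt and 1 upstream of Rag1. In bulk cells, fewer cells with an open region and less opening per cell cannot be told apart.

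**Figure D2:**
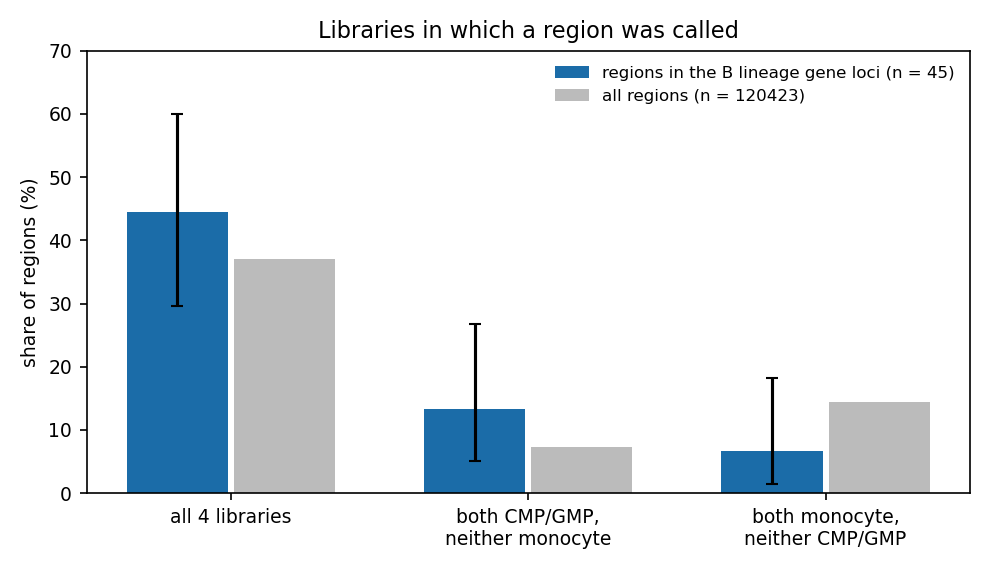
Bars give the percentage of regions (vertical, from 0) with each of 3 patterns of calls, for the 45 member regions (with exact 95% binomial intervals as error bars) and for all 120423 regions. Member regions called in both CMP/GMP libraries only made 13.3% against 7.28%, and those called in both monocyte libraries only made 6.67% against 14.4%.

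The surrogate light chain genes held the strongest of the 6 CMP/GMP regions. Igll1 (chr16:16860671-16863985) and Vpreb1 (chr16:16868401-16869255) are both on the minus strand, and the region at chr16:16865128-16865722 lies in the stretch between them, 1418 bases upstream of the Igll1 start and 3852 bases downstream of the Vpreb1 start. It had 58 tags in WT and 116 in Cxcr3-/- CMP/GMP, and it was called in neither monocyte library. By −log10 q it ranked 5905 in the WT and 3853 in the Cxcr3-/- progenitor list. Equal accessibility would have given 81.6 tags in WT monocytes and 79.1 in Cxcr3-/- monocytes, whereas 99% of the called intervals there had at least 6 and 7 tags. On the common scale the CMP/GMP values were 73.3 in WT and 89.9 in Cxcr3-/-, a log2 ratio of 0.30 (95% counting interval −0.17 to 0.78), which does not separate the genotypes.

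A second region of this kind lay 6699 bases downstream of the Igll1 start, at chr16:16857108-16857390, with 25 tags in WT and 48 in Cxcr3-/- CMP/GMP. Equal accessibility would have given 35.2 and 32.7 tags in WT and Cxcr3-/- monocytes. Farther on, at 8959 bases, a region was called in all 4 libraries with 22, 40, 8 and 7 tags. Both CMP/GMP libraries were above both monocyte libraries, with log2 ratios of monocytes to CMP/GMP of −1.95 in WT and −1.96 in Cxcr3-/-, but in each pair the mean was under the 30 tags required for a ratio to be counted. The Top3b start, 1497 bases upstream of Vpreb1, had 92, 142, 82 and 64 tags. Its ratios of monocytes to CMP/GMP were −0.66 (−1.11 to −0.21) in WT and −0.60 (−1.05 to −0.16) in Cxcr3-/-. When libraries were scaled on the background instead of on shared regions, these became 0.33 and −0.15, so the direction at Top3b depends on the scaling in WT.

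**Figure D3:**
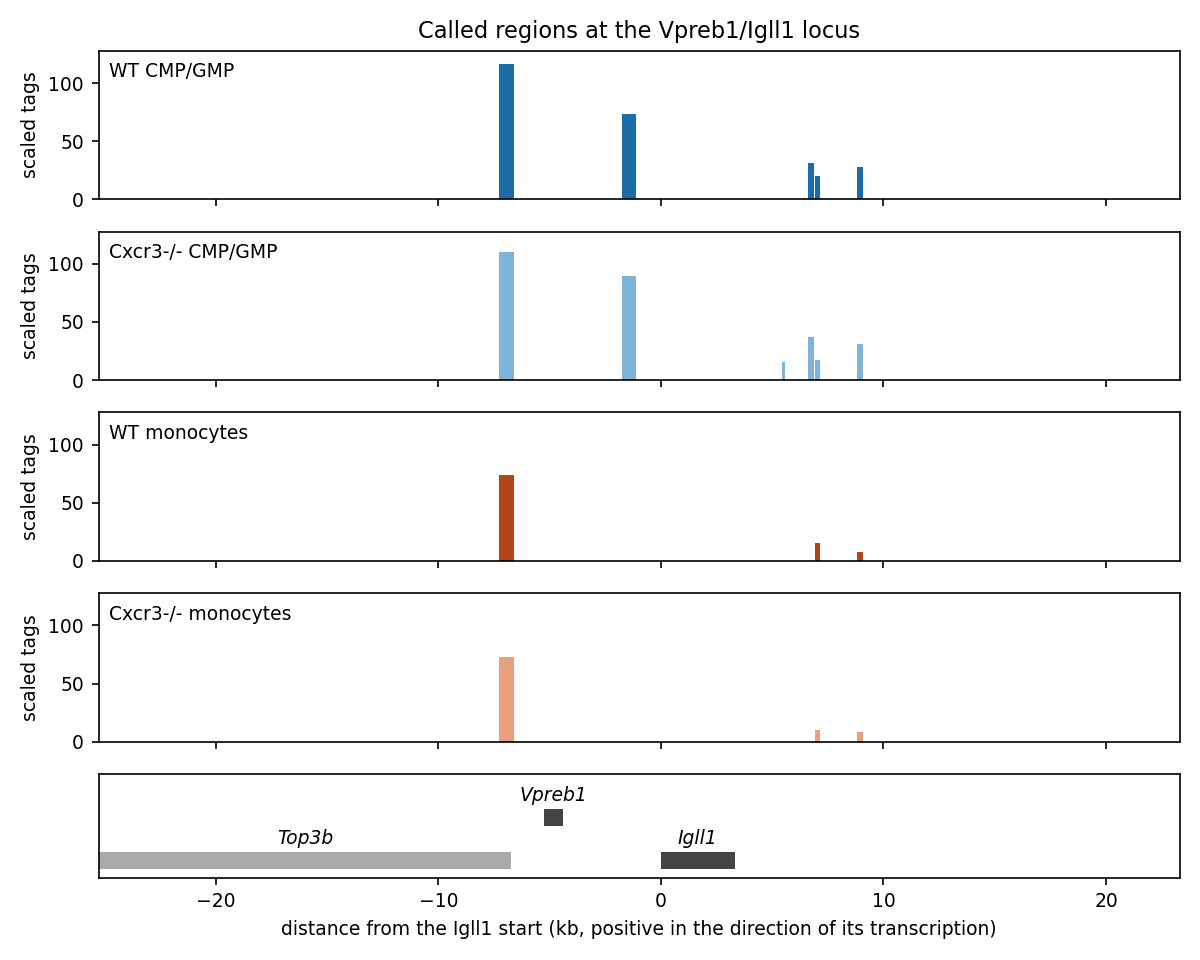
Regions of the Vpreb1/Igll1 locus by distance from the Igll1 start in kb (horizontal, positive in the direction of transcription), with bar width showing the region's extent and height its scaled summit tags (vertical, from 0) in each of the 4 libraries, and gene bodies to scale at the bottom. The region between Vpreb1 and Igll1 stands at 73.3 and 89.9 in the CMP/GMP panels and is missing from both monocyte panels, while the Top3b start is in all 4.

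Cr2, the complement receptor gene (chr1:195136811-195176880, minus strand), was the member whose own promoter was called. The region at chr1:195176448-195176947 had its summit 10 bases from an annotated start and covered the E-box printed above. It had 53, 64, 13 and 15 tags, 67.0, 49.6, 11.7 and 17.1 when scaled. Both progenitor libraries were above both monocyte libraries. Its log2 ratio for monocytes over progenitors reached −2.52 (−3.52 to −1.63) in WT and −1.54 (−2.46 to −0.71) in Cxcr3-/-. With background scaling it was −1.53 and −1.10, both still more than 2-fold lower. The genotypes differed by −0.43 (−0.98 to 0.12) in CMP/GMP, within counting error. The 13 and 15 monocyte tags are under the median of 21 in both lists. The other region of the locus, over the starts of Cr1l and a noncoding gene, had 128, 154, 81 and 88 tags, with ratios of −1.15 (−1.57 to −0.74) in WT and −0.25 (−0.65 to 0.13) in Cxcr3-/-. Those ratios were −0.17 and 0.19 with background scaling, so no direction is given for it.

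At Ebf1 (chr11:44618100-45008096, plus strand), the gene of the specifying factor, 2 starts are annotated, and no called region covered either. The nearest region, at chr11:44618292-44618602, began 192 bases inside the gene. It was called in Cxcr3-/- CMP/GMP with 15 tags and in Cxcr3-/- monocytes with 12, and in neither WT library. Accessibility equal to that in Cxcr3-/- CMP/GMP would have given 9.2 tags in WT CMP/GMP and 13.0 in WT monocytes. The first percentile of summit height is 9 tags in the WT CMP/GMP list, so the absence there says little. In the WT monocyte list it is 6 tags, with a median of 21. This pattern of calls was found at 1 of the 45 member regions and at 0.492% of all regions. Upstream by 864 bases, chr11:44616950-44617377 was called in all 4 with 25, 30, 34 and 33 tags. Its monocyte to CMP/GMP ratio in Cxcr3-/- was 0.69 (−0.07 to 1.45), and in WT, where the mean was under 30 tags, it was −0.05. The 2 CMP/GMP regions at Ebf1 were weak: 10 and 14 tags at 10987 bases upstream of the first start, and 19 and 22 tags at chr11:44881228-44881658, inside the gene. Equal accessibility would have given 14.1 and 9.5 monocyte tags at the first and 26.7 and 15 at the second, in WT and Cxcr3-/-. For the first these values are close to the weakest intervals called, and an absence there says little. The Ebf1 locus had 6 and 8 intervals in CMP/GMP and 3 and 4 in monocytes.

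At Pax5 (chr4:44524748-44710694, minus strand), the commitment factor gene, 1 region stood out. It lay 6184 bases inside the gene at chr4:44704266-44704705, where a long noncoding gene is also annotated, and had 31, 59, 18 and 10 tags. Both CMP/GMP libraries were above both monocyte libraries. The log2 ratio of monocytes to CMP/GMP was −2.01 (−3.14 to −1.03) in Cxcr3-/-, and −1.28 (−2.20 to −0.39) in WT, where the mean was under 30 tags. With background scaling it was −1.56 in Cxcr3-/- and −0.29 in WT. The remaining 3 regions of the locus had 6 to 14 tags, and none was called in Cxcr3-/- monocytes, which had 1 interval in the whole locus against 4 in WT monocytes. Those 4 included 1 of 6 tags, near the lowest height of the WT monocyte list. At the 3 regions absent from Cxcr3-/- monocytes, equal accessibility would have given 8.9, 9.5 and 4.7 tags there. The first percentile of summit height in that list is 7 tags, so these absences say little.

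Cd79a (chr7:24897497-24901858, plus strand), the signalling chain of the B cell receptor, lies in a gene-dense stretch, and its own start was not called. A region at chr7:24890369-24890766, 6862 bases upstream and between genes, had 35, 58, 21 and 9 tags. Its log2 ratio of monocytes to CMP/GMP was −2.14 (−3.33 to −1.11) in Cxcr3-/- and −1.23 (−2.08 to −0.41) in WT, the latter under the 30-tag minimum. The neighbours were far stronger. The start of Rps19, a ribosomal protein gene, had 105, 161, 103 and 62 tags with ratios of −0.52 and −0.82 in WT and Cxcr3-/-. The Arhgef1 start had 114, 227, 125 and 80 tags with ratios of −0.36 (−0.74 to 0.02) and −0.95 (−1.34 to −0.58). With background scaling the WT ratios became −0.24 upstream of Cd79a, 0.47 at Rps19 and 0.63 at Arhgef1. Those in Cxcr3-/- became −1.69, −0.38 and −0.51. The direction at the starts of Rps19 and Arhgef1 thus depends on the scaling in WT. A second Arhgef1 start had 22, 36 and 18 tags in WT CMP/GMP, WT monocytes and Cxcr3-/- monocytes and was not called in Cxcr3-/- CMP/GMP.

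The recombinase genes Rag2 (chr2:101624712-101632528, plus strand) and Rag1 (chr2:101638252-101649532, minus strand) point towards each other. Their strongest region, at chr2:101628644-101629199, is inside Rag2, 4307 bases from its start, and covers the start of Iftap. It had 140, 185, 103 and 135 tags. In WT the log2 ratio of monocytes to CMP/GMP was −0.94 (−1.32 to −0.56), and in Cxcr3-/- it was 0.10 (−0.23 to 0.43). Cxcr3-/- monocytes were higher than WT monocytes by 0.73 (0.35 to 1.12), while Cxcr3-/- CMP/GMP were at −0.30 (−0.63 to 0.02) relative to WT. The region upstream of Rag1, 1477 bases from its start at chr2:101650952-101651128, was called in monocytes of both genotypes with 19 and 11 tags and in no CMP/GMP library, where equal accessibility would have given 13.5 tags in WT and 16.1 in Cxcr3-/-. Between 3478 and 15948 bases upstream of Rag1 there were 2 further regions, called in all 4 with 18, 11, 13 and 10 tags and with 27, 40, 29 and 16 tags. A second annotated start of Iftap, at chr2:101621017-101621131, was called in WT monocytes alone, with 12 tags. At 2916 bases upstream of Rag2 a region had 38, 37 and 30 tags in Cxcr3-/- CMP/GMP and in the WT and Cxcr3-/- monocytes, and was not called in WT CMP/GMP. The locus had 4 intervals in each CMP/GMP library, 8 in WT monocytes and 6 in Cxcr3-/- monocytes.

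**Figure D4:**
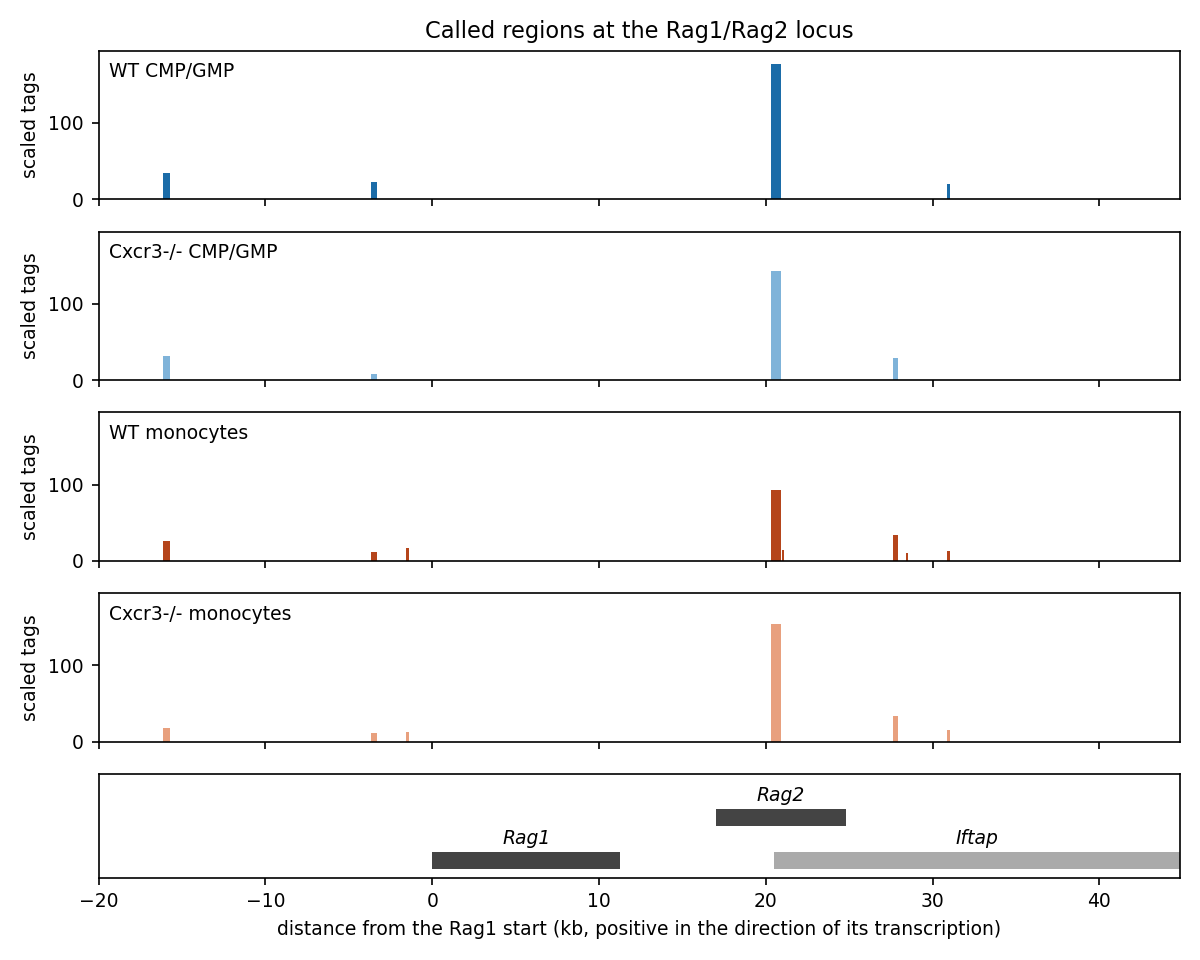
Regions of the Rag1/Rag2 locus by distance from the Rag1 start in kb (horizontal, positive in the direction of transcription), with bar height giving scaled summit tags (vertical, from 0) in each of the 4 libraries, and gene bodies to scale at the bottom. The region over the Iftap start inside Rag2 rises above the rest in every panel, at 92.5 to 177, and the small region upstream of Rag1 appears only in the 2 monocyte panels.

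Dntt (chr19:41029275-41059525, plus strand), the TdT gene, held the only member region with enough tags that was more than 2-fold higher in monocytes. Its strongest region, chr19:41030957-41031416, lies 1902 bases inside the gene and had 15, 24, 71 and 47 tags, or 19.0, 18.6, 63.7 and 53.4 when scaled. Both monocyte libraries were above both CMP/GMP libraries. WT monocytes exceeded WT CMP/GMP by a log2 ratio of 1.75 (0.93 to 2.66), and Cxcr3-/- monocytes exceeded their progenitors by 1.52 (0.78 to 2.30). Farther inside the gene, the calls made in 1 cell type only were of both kinds. At 7085 bases a region was called in monocytes only, with 22 and 17 tags, and at 25574 bases another, with 10 and 12, where equal accessibility would have given 7.1 tags in WT and 17.6 in Cxcr3-/- CMP/GMP. The 7.1 tags are under the first percentile of 9 in the WT CMP/GMP list, so the absence there says little. At 9067 and 10030 bases 2 regions were called in CMP/GMP only, with 19 and 18 tags and with 18 and 30. Equal accessibility would have given 15.6 and 24.9 CMP/GMP tags at 7085 bases, and 26.7 and 12.3 monocyte tags at 9067 bases, in WT and Cxcr3-/-. The other 6 regions of the locus had 12 to 40 tags, and 4 of them were called in all 4 libraries; the 2 that were not were absent from Cxcr3-/- monocytes. The locus thus held regions of both kinds, and the number of intervals (9, 9, 9 and 7) did not show it.

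Across the regions with at least 30 tags on average in the pair of libraries, most ratios of monocytes to CMP/GMP were below 0, and many of these regions belong to neighbours. In WT, 5 of the 7 regions with a ratio were other genes' starts, which left 2, the Cr2 start at −2.52 and the Dntt region at 1.75; the median was that of the Top3b start. In WT, 6 of 7 regions were below 0, 1 was more than 2-fold higher (the Dntt region; 10.8% of all regions were) and 2 more than 2-fold lower (the Cr2 and Cr1l starts; 6.67% of all regions). The median was −0.66 against 0.03 over all 25520 regions with a ratio. In Cxcr3-/-, 7 of 11 were below 0, 1 was more than 2-fold higher (the Dntt region; 10.9%) and 3 more than 2-fold lower (the regions named at Cr2, Pax5 and Cd79a; 9.78%), with a median of −0.60 against −0.10. Background scaling moves every such ratio by 0.99 in WT and 0.44 in Cxcr3-/-, so the members' medians became 0.33 and −0.15 and the sign in WT turned. Relative to the median of all regions, which moves with it, the members' median stood at −0.69 in WT and −0.50 in Cxcr3-/- on either scale. Because this adds a constant to each comparison, a ratio near 0 can change sign, as 10 of the 39 member ratios over all 4 comparisons did. Of the 7 past 2-fold, the Cr1l start in WT, at −0.17, was no longer so. Summed signal at the 5 other B cell marker loci was 953 and 955 scaled tags in CMP/GMP and 767 and 686 in monocytes, with no start of these markers called, but its members went different ways. Fcer2a had 560 and 520 in CMP/GMP and 314 and 318 in monocytes, while Ms4a1 had 46.7 and 59.7 and then 161 and 149. At the 4 early lymphoid loci the sum was 1406 and 1490 in CMP/GMP and 1178 and 1097 in monocytes, and these markers differed too. Flt3, also one of the CMP/GMP markers, had 604 and 680 in CMP/GMP and 408 and 434 in monocytes. Il7r had 79.6 and 72.9 and then 164 and 158. Satb1 went as Flt3 did, and Notch1 differed between the genotypes. At the 8 T cell loci the sum was 806 and 919 in CMP/GMP and 1042 and 895 in monocytes, again with no start called. At the 5 loci of plasmacytoid dendritic cell markers it was 1159 and 1183 in CMP/GMP and 1764 and 1631 in monocytes, with 1 region called in CMP/GMP only, 15 in monocytes only and 2 of 5 starts called. These markers differed as well. Tcf4, Irf8 and Ccr9 were higher in monocytes of both genotypes, and held 10, 4 and 1 of the monocyte-only regions. Siglech (239 and 254, then 192 and 233) and Ly6d (92.2 and 78.3, then 56.6 and 66.0) were lower and held none. The part of other cells in the members' ratios was not tested.

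**Figure D5:**
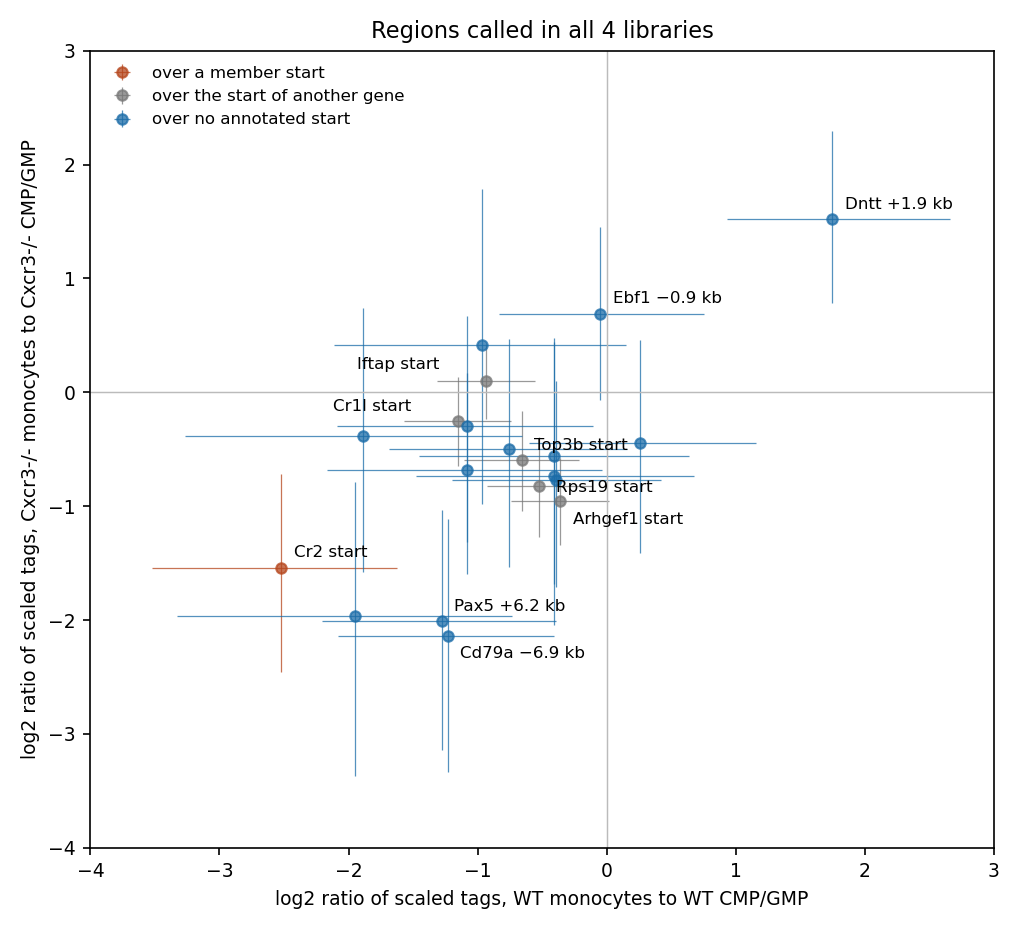
Log2 ratio of scaled tags, monocytes to CMP/GMP, in WT (horizontal) against the same ratio in Cxcr3-/- (vertical) for the 20 member regions called in all 4 libraries, including those under the 30-tag minimum, with 95% counting intervals as lines and colour for the start a region covers. The Dntt region at 1.75 and 1.52 stands at upper right, the Cr2 start at −2.52 and −1.54 at lower left, and the Iftap start inside Rag2 lies at −0.94 and 0.10.

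Counted by interval, 8 of 33 member intervals of WT monocytes (24.2%, 11.1 to 42.3) shared no base with a WT CMP/GMP interval, against 44.2% of the whole list, which puts the full-list share above the members' interval. In the other direction it was also 8 of 33, against 20.4%. In Cxcr3-/-, 5 of 27 monocyte intervals had no partner (18.5%, 6.30 to 38.1; 29.2% of the list), and 13 of 35 CMP/GMP intervals had none (37.1%, 21.5 to 55.1; 33.6% of the list). The WT monocyte list is the longest of the 4 and has the lowest first percentile of summit height, 6 tags.

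Between genotypes, no member region with enough tags differed by more than 2-fold. Of 39 member regions called in CMP/GMP of either genotype, 29 were called in both (74.4%; 70.7% over all regions), and of 34 in monocytes 26 were (76.5%; 70.1%). Of 35 Cxcr3-/- CMP/GMP intervals 6 had no WT partner (17.1%; 24.2% of the list), and of 33 WT intervals 4 had no Cxcr3-/- partner (12.1%; 9.07%). In monocytes it was 1 of 27 Cxcr3-/- intervals (3.70%; 6.84%) and 7 of 33 WT intervals (21.2%; 26.5%). Over all regions, 0.139% were more than 2-fold higher and 0.136% lower in CMP/GMP, and 0.264% higher and 0.401% lower in monocytes. The 13 CMP/GMP ratios ran from −0.44 to 0.30 with a median of 0.02, and the 8 monocyte ratios from −0.39 to 0.73 with a median of 0.01. These comparisons use the same 4 libraries as those between cell types.

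Another 31 genes of the B lineage, chosen for their known roles, were read in the same way, and all matched an annotated gene. Their loci held 331 regions, of which 129 were called in all 4 libraries (39.0%), 32 in CMP/GMP only (9.67%) and 38 in monocytes only (11.5%). Over all regions the shares were close to these, at 37.0%, 7.28% and 14.4%. The starts of 13 of these genes lay in a region, 12 of them in all 4 libraries, against 1 of the 9 members. Among protein-coding genes with a matched start the share was 56.3%. These differences were not tested. Bach2, a transcriptional repressor of B cells, held 12 CMP/GMP-only and 8 monocyte-only regions among 55, and Ikzf1, which encodes Ikaros, held 2 and 4 among 26. Blnk, the adaptor of the B cell receptor, held 2 of each among 9. Irf4 held 1 of each among 10, and Foxo1 1 and 2 among 12. Rasgrp3, Cd72 and Bank1 held 6, 4 and 3 monocyte-only regions and none of the other kind, among 18, 12 and 10. Summed signal takes in every region of a locus, neighbours' starts included, and a region that was not called adds nothing. On that basis the member loci had 0.323, 0.294, 0.198 and 0.185 of their summed scaled signal in the 4 libraries, as fractions. The profiles nearest to this were those of Fcer2a (distance 0.0181 between the fractions), Btk (0.0450) and Ikzf3 (0.0457), measured over 4 libraries, too few to tell one order from another.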

How the data were processed

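Omni-ATAC-seq libraries of 4 groups, 1 per group, were deposited by the authors as lists of called intervals on mm10. Trim Galore, Bowtie2 and SAMtools are named in the submitters' processing notes; the peak caller, and whether the duplicate sequencing runs were pooled, are not given in the sources used here. Per the labels' protocols, transposition used TDE1 enzyme and reads were paired-end. The deposited columns hold a display score, a fold (ratio of pileup to local background), a −log10 p, a −log10 q and the summit offset. The q was used to rank intervals within a list and for a stricter threshold, and the score was not used.

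The whole-number pileup at each summit was recovered from the deposited fold and −log10 p, assuming a Poisson p and a fold with 1 added to pileup and background as MACS computes them, within a tolerance of 0.001; 3 intervals per library did not come out whole. Pileups were divided by the median over regions called in all 4 libraries, relative to the geometric mean (factors 0.791 and 1.29 for the WT and Cxcr3-/- progenitors, 1.11 and 0.879 for the monocytes). Background was estimated from the called intervals alone, as reads outside them were not counted. It was the first percentile of the local background recovered at the summits of a list. This was divided by the length of the shortest interval of that list (118, 125, 100 and 111 bases), so it depends on that length too. It ran from 95.6 to 194 tags per 10 kb, and background scaling, an alternative, divided by it instead. A region absent from a list has no value there, and a ratio was formed only where both libraries called the region and their mean was at least 30 tags. Ratios have exact 95% conditional binomial intervals, shares exact Clopper-Pearson intervals, and a ratio past 2-fold was counted as called; all cover counting error only.

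Gene positions and promoter windows (250 bases before to 50 after a start) are RefSeq's for GRCm38.p6; exons, introns and UTRs were not used here. Motifs had been planned around summits, which needs a genome; promoter windows were searched instead, on both strands. Members and gene lists were chosen with earlier results of these data known, and 1 listed B cell gene is not reported here. Described were all members and, in each locus, the region with the highest summed signal, those called in 1 cell type only in both genotypes, and those at a gene start. Of the other B lineage genes, at most 8 were named, by the summed pileup of cell-type-only regions, with the 3 nearest in profile; further regions were added after their values were seen. Python 3.11.15, numpy 2.4.6, scipy 1.17.1 and pandas 2.3.3 were used, and the pileup recovery and the intervals were tested on simulated data. Alternatives changed the locus window, the overlap rule, the scaling, the minimum pileup, the strictness and the length of the lists.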

Additional observations from a re-analysis of the deposited data

Results flagged for a closer look

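The region inside Rag2 that covers the start of Iftap was picked out because its log2 ratios of monocytes to CMP/GMP had opposite signs in the 2 genotypes: monocytes were below CMP/GMP in WT (103 against 140 tags before scaling, log2 ratio after it −0.94) and differed from them by less than counting error in Cxcr3-/- (135 against 185 tags, 0.10, interval −0.23 to 0.43). The difference, Cxcr3-/- minus WT, was 1.03 on the log2 scale (0.55 to 1.52 from counting error), and with 1 library per group it was not tested against biological spread. With background scaling the ratios were 0.05 and 0.54, which have the same sign, so the opposite signs depend on the scaling. Of 24376 regions with enough tags in all 4 libraries, 6070 (24.9%) had opposite signs and 1184 (4.86%) a difference above 1. Among the members, 1 of 7 did so in each case.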

How the results depend on the processing

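No paired analysis was possible because each group has 1 library and the labels give no replicate numbers; leaving out a replicate was not possible either. Gene bodies alone held 12, 14, 12 and 8 intervals (33, 35, 33 and 27 with the flanks). With a reciprocal overlap of 50%, the share of intervals without a partner in the WT cell type comparison rose from 24.2% to 45.5% in monocytes and to 45.5% in CMP/GMP. With lists of equal length, 20% of Cxcr3-/- monocyte intervals had no WT partner, against 3.70%. Full-list shares were not computed under these changed rules. The contrast of WT monocyte members with the full-list 44.2% was thus not checked there. Background scaling moved the median log2 ratio of monocytes to CMP/GMP to 0.33 in WT and −0.15 in Cxcr3-/-, and that of Cxcr3-/- to WT to 0.20 in CMP/GMP and −0.35 in monocytes. A minimum of 15 tags gave −0.11 for CMP/GMP and −0.21 for monocytes between genotypes, and no minimum gave −0.22 for CMP/GMP. Without regions over other genes' starts, an alternative chosen after seeing the data, the medians were −0.39 for WT monocytes against CMP/GMP and 0.19 for the genotypes in CMP/GMP. The other 55 alternative values of the summary results moved by less than their counting interval or by under 1.5 times. CMP/GMP-only regions numbered 5 to 6, monocyte-only regions 2 to 3, and those called in all 4 libraries 15 to 20.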
